A study of Mus musculus with 18 samples.

Results

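Hearts of wild-type C57BL/6 mice that had been made hypothyroid and then given thyroid hormone were compared with hearts of wild-type mice kept on normal chow. The 6 libraries, 3 in each group, were chosen by their genotype and treatment labels and are 6 of the 18 in the series. Propylthiouracil (PTU) blocks the synthesis of thyroid hormone in the thyroid gland, and triiodothyronine (T3) is the hormone's active form. Both groups are labelled 12 weeks of age. Diets were begun at 8 weeks and lasted 4 weeks, and the hormone group ate PTU throughout and then received 3 daily injections of T3. No injection is stated for the chow mice, so the PTU diet, the hormone and the injections cannot be told apart within this comparison. Wild-type hearts on PTU alone are shown beside it. The same 3 treatments in mice labelled as a cardiac-specific Med13 knockout (cKO) supply libraries that are in neither group of the wild-type comparison. All 18 libraries nevertheless enter each gene's estimated spread and the choice of genes tested. Neither the T3 dose, the interval after the last injection nor the driver of the knockout is given in the sources used here.

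Thyroid hormone enters the cell through membrane transporters, and T3 binds the nuclear receptors encoded by Thra and Thrb, which sit on DNA with a retinoid X receptor. Bound receptor recruits coactivators and the Mediator complex, while receptor without hormone holds corepressors at induced genes. In the mouse ventricle the hormone is known for switching myosin heavy chain from the Myh7 to the Myh6 form, speeding calcium reuptake and raising heart rate.

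Polyadenylated RNA from whole hearts was sequenced, and levels are the authors' FPKM, fragments scaled to transcript length and to each library's total. The deposited values carry no read totals, so the depth behind each value is unknown. Differences are given on the scale log2(FPKM + 1), which understates the change of genes near or under 1 FPKM. A gene is called higher or lower after T3 where its adjusted p from limma was under 0.05, with Benjamini-Hochberg adjustment over all 12587 genes tested (of 24341 in the table). Library values are given in the order of replicates 1, 2 and 3, and a mean is followed by ± SD over the 3 libraries of its group. Replicate numbers follow the order of the records. Titles begin with a number of their own, 831, 825 and 827 on chow and 821, 819 and 818 after T3. Any order behind these numbers cannot be told apart from treatment, since those after T3 are all lower. The labels do not explain the numbers, and nothing else in them ties each library to its own animal. The p-values therefore rest on the spread among these samples, some of which may be technical. Fewer cells of a type and less RNA per cell cannot be told apart in whole hearts.

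The libraries carried the tissue's markers: Tnnt2, cardiac troponin T, was at 5729.7 to 6917 FPKM on chow and 5478 to 8518 FPKM after T3, while Myh4 of fast skeletal muscle was at the table's lowest value, 0.01 FPKM, in all 6. Every library also had the Y-linked Ddx3y (23.9 to 26.7 FPKM on chow and 25.1 to 27.3 FPKM after T3) with Xist under 0.164 FPKM. Atrial markers summed to 2652, 1011 and 8169.6 FPKM on chow and 3449, 3137 and 3566 after T3, most of it the natriuretic peptide gene Nppa. The other 10 atrial markers summed to 211, 185 and 533 on chow and 952, 177 and 531 after T3, highest in T3 replicate 1, and the groups overlap. Matrix and fibroblast markers (2738, 5049.9 and 3137) and macrophage markers (759.9, 1078 and 658) were highest in T3 replicate 2. Med13 itself was at 5.52, 5.24 and 5.80 FPKM on chow, 6.29, 5.30 and 5.61 after T3 and 6.26, 6.34 and 5.09 in the chow libraries labelled cKO. The labels do not say which part of Med13 is deleted, so its level over the whole gene does not check the knockout label.

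After T3, 967 genes were higher than on chow (7.68% of those tested) and 881 were lower (6.999%). A called difference of at least 1 on the log2 scale was found for 82 higher genes (0.651%) and 57 lower genes (0.453%). Groups that do not overlap were more common than calls, with 16.3% of tested genes above and 15.2% below chow in all 3 T3 libraries. Left out one at a time, the 6 libraries gave between 949 and 1752 calls, with 949 without T3 replicate 3 and 1017 without chow replicate 1. Of the 1848 genes called, 700 kept the call in all 6 of these fits.

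The 15 genes farthest above and the 15 farthest below chow were taken from called genes whose T3 and chow libraries do not overlap. Of the 15 above, 13 had a lower mean on PTU than on chow, the chow libraries being those by which they were picked. The share over all tested genes was not counted. 2210407C18Rik, an uncharacterised transcript, was at 0.742, 0.403 and 0.587 FPKM on chow, 0.351, 0.381 and 0.156 on PTU and 19.9, 42.5 and 77.6 after T3 (log2 difference 4.72, SE 0.536, adjusted p = 0.000107). Among wild-type libraries it reached 1 FPKM, the level of the filter, only after T3. The filter can thus favour such genes among the highest. Hr encodes a nuclear corepressor and is a textbook direct target of the hormone receptors. It was at 8.03, 7.02 and 6.14 FPKM on chow, 1.15, 1.43 and 0.368 on PTU and 59.3, 48.7 and 51.4 after T3, 7.52 times the chow mean (log2 difference 2.75, SE 0.171, adjusted p = 3.43e-07). In both genes the 3 T3 libraries also lay far above the 3 PTU libraries.

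Klhl33, a kelch-repeat protein gene, was at 7.33, 6.06 and 2.74 FPKM on chow and 40.3, 32.2 and 46.8 FPKM after T3 (log2 difference 2.74, SE 0.259, adjusted p = 1.52e-05). Fhit, which encodes a diadenosine triphosphate hydrolase, went from 2.80, 2.08 and 1.81 FPKM on chow to 22.2, 12.5 and 17.03 after T3 (log2 difference 2.47, SE 0.305, adjusted p = 0.000144), and PTU hearts were at 4.47, 2.62 and 1.61. Trim7, a ubiquitin ligase that binds glycogenin, was at 12.4, 12.2 and 9.07 FPKM on chow, 2.40, 1.57 and 2.02 on PTU and 54.2, 35.4 and 58.05 after T3 (log2 difference 2.02, SE 0.186, adjusted p = 1.26e-05). The others of the 15 highest were Abhd1, Rgs7, Sema6c, Tlcd2, Acsl6, 9030619P08Rik, Syt12, Rhoc, B930025P03Rik and Prss55, with log2 differences from 1.64 to 2.66. Only the call of Abhd1 among the 15 ended when 1 library was left out, without chow replicate 1, 2 or 3 or T3 replicate 1, 2 or 3 (adjusted p up to 0.156), and its level in hearts labelled cKO was 16.7, 28.2 and 7.78 FPKM on chow and 4.20, 44.6 and 39.5 after T3.

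The lowest was Myom2, which encodes an M-band protein of the sarcomere. Its level was 299, 255 and 254 FPKM on chow, 713, 637 and 872 on PTU and 32.4, 20.9 and 28.9 after T3, and the chow mean was 9.84 times the T3 mean (log2 difference -3.27, SE 0.217, adjusted p = 4.72e-07). Next came 9630028I04Rik, at 14.6, 9.25 and 7.47 FPKM on chow and 0.776, 0.653 and 0.733 after T3 (log2 difference -2.69, SE 0.208, adjusted p = 1.68e-06), and Cpxm2, a carboxypeptidase-like gene, at 10.7, 6.87 and 15.1 and 1.37, 1.05 and 0.858 (log2 difference -2.45, SE 0.305, adjusted p = 0.000157). The others of the 15 lowest were Lrrc2, Fam134b, Kcnip2, Armc2, Scd4, Gm19277, Rrad, Ptgds, Ubxn10, Myh7b, Asb14 and Efnb3, from -2.23 to -1.55, and all 15 kept the call without any 1 library.

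**Figure D1:**
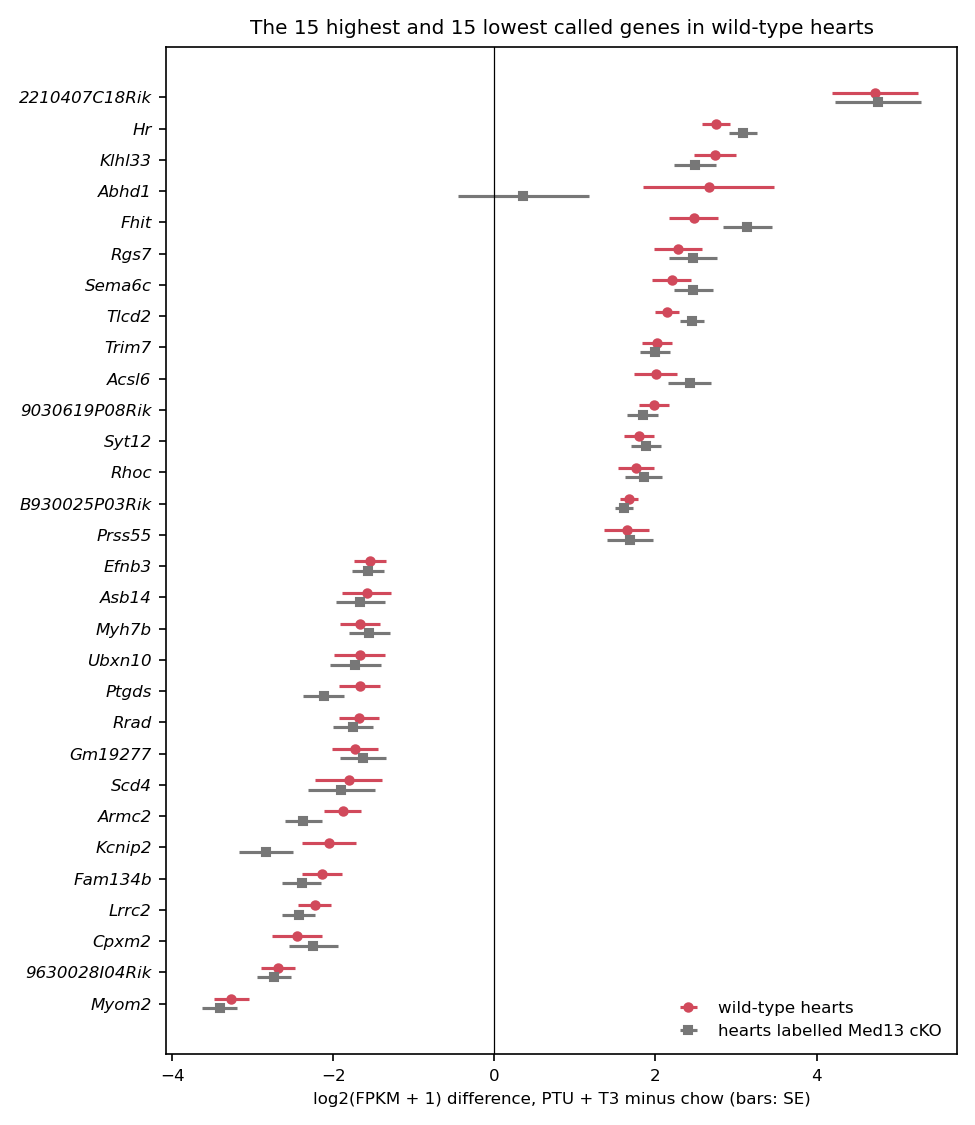
Log2(FPKM + 1) difference, PTU with T3 minus chow, for the 15 highest and 15 lowest called genes whose groups do not overlap, with bars of 1 SE, in wild-type hearts (red circles) and hearts labelled Med13 cKO (grey squares). Differences run from -3.27 for Myom2 to 4.72 for 2210407C18Rik, and Abhd1 is the gene with widely separate points.

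Promoter windows are shown for the 3 highest and 2 lowest genes that have an entry in the RefSeq table (GRCm38.p6), because the receptors' classical half-site is known: AGGTCA, here searched on both strands. Each window has 300 bases around the gene's start, printed 5′ to 3′ on the gene's strand with half-site letters in capitals (TGACCT on the other strand). Where a gene has several windows, the first that holds the half-site is shown, a choice made after the windows were seen.
2210407C18Rik (chr11:58613443-58613742, minus strand): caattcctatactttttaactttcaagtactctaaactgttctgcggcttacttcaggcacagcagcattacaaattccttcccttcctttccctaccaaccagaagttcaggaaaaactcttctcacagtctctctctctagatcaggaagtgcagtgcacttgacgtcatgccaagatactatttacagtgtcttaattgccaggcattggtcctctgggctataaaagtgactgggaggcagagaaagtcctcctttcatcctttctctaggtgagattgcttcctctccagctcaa
Klhl33 (chr14:50897434-50897733, minus strand): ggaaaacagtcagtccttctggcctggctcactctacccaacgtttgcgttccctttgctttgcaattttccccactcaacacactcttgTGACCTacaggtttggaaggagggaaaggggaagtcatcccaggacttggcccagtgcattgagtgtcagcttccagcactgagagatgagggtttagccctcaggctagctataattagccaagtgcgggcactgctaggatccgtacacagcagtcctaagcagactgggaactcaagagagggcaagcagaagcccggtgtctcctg
Fhit (chr14:10453409-10453708, minus strand): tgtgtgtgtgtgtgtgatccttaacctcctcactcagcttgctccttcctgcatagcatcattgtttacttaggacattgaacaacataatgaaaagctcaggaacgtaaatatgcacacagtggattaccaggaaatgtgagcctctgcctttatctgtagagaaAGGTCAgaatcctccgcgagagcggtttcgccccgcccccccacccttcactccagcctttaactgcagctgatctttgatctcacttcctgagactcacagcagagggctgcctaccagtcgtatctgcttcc
9630028I04Rik (chr17:27248017-27248316, minus strand): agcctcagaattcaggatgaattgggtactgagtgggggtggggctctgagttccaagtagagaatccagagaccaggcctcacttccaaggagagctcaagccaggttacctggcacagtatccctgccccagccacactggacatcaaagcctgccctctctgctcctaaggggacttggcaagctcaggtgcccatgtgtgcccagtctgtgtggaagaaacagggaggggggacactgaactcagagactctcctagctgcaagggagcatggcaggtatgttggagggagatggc
Cpxm2 (chr7:132154692-132154991, minus strand): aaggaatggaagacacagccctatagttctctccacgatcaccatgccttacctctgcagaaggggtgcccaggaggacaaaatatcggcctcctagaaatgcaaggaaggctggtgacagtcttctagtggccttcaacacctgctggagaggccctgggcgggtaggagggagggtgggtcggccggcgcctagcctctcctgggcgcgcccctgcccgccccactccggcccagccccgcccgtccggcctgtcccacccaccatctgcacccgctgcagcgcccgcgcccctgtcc

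Klhl33 and Fhit each hold 1 half-site, and the windows of 2210407C18Rik, 9630028I04Rik and Cpxm2 hold none. A window was found for 9546 of the 12587 tested genes (75.8%). The half-site occurred in 14.8% of these, in 16.1% of the genes higher after T3 and in 16.1% of those lower. Among the 15 highest genes 10 had a window and 4 held the half-site, as did 4 of the 10 with a window among the 15 lowest. The classical direct repeat of the half-site was in no window. These matches are a description of the letters near the start site.

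Several genes by which thyroid state in the heart is usually judged did not pass the test against chow after 3 injections. Myh6, the fast myosin heavy chain, was at 3719, 3603 and 2291 FPKM on chow, 404, 208 and 106 on PTU and 3426, 2547 and 3099.97 after T3 (log2 difference -0.06, SE 0.367, adjusted p = 0.936). Myh7, the slow form, was at 181, 103 and 124 on chow, 3088, 2599 and 3642 on PTU and 193, 166 and 224 after T3 (log2 difference 0.54, SE 0.251, adjusted p = 0.163). For both, the T3 and chow libraries overlap and the PTU libraries lie well apart from both. A p above the threshold does not show that their levels equal those on chow.

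Atp2a2, which encodes the pump that returns calcium to the sarcoplasmic reticulum, was at 3082, 3178 and 1818 FPKM on chow and 2987, 2249 and 3089 after T3 (log2 difference 0.07, SE 0.269, adjusted p = 0.888). Its inhibitor phospholamban, Pln, was at 3171, 3300.4 and 2626 FPKM on chow, 4384, 3722 and 5076 on PTU and 2184, 1918 and 2623 after T3. That difference did not pass the test in the fit used here (log2 difference -0.44, SE 0.193, adjusted p = 0.139), although the 3 T3 libraries lay under chow without overlap, and it did pass after quantile normalization. Tnni1, slow skeletal troponin I of the fetal heart, was at 0.402, 0.219 and 0.679 FPKM on chow, 14.2, 20.4 and 6.01 on PTU and 0.824, 0.323 and 0.387 after T3. Ryr2, Slc8a1, Kcnd2, Klf9, Vegfa, Igf1, Angptl4, Cdkn1a, Nppa and Acta1 also had no call, with adjusted p from 0.131 to 0.987. In Nppa the chow libraries alone spanned 2441, 826 and 7637 FPKM, against 2497, 2959.9 and 3034 after T3, so the T3 libraries lie inside the chow range.

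**Figure D2:**
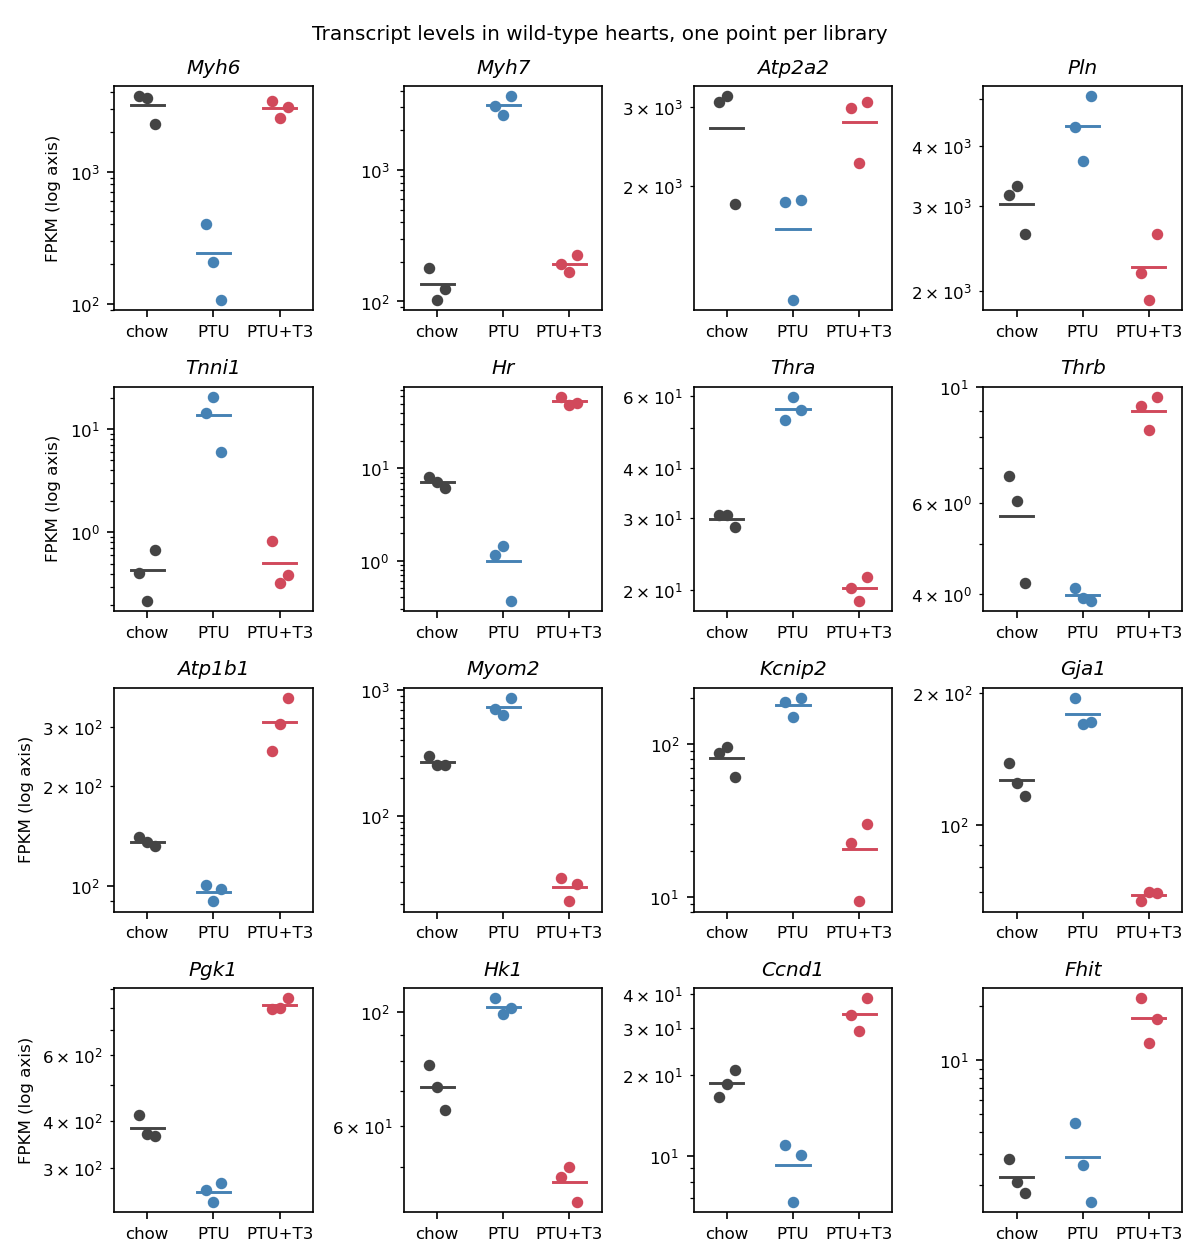
FPKM on a log axis for 16 genes in wild-type hearts, one point per library and a line at each group's mean, for chow, PTU, and PTU with T3. Myh6, Myh7, Atp2a2 and Tnni1 overlap between chow and T3, whereas in Hr, Myom2, Gja1 and Pgk1 the T3 libraries lie beyond chow on the side away from PTU.

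The hormone's own receptors moved in opposite directions. Thra, the main receptor gene of the heart, was at 30.5, 30.6 and 28.5 FPKM on chow, 52.3, 59.8 and 55.4 on PTU and 20.2, 18.8 and 21.5 after T3 (log2 difference -0.55, SE 0.0880, adjusted p = 0.00110). Thrb was at 6.75, 6.03 and 4.21 FPKM on chow, 4.12, 3.94 and 3.89 on PTU and 9.18, 8.26 and 9.57 after T3 (log2 difference 0.60, SE 0.145, adjusted p = 0.0121). Neither gene's T3 libraries overlap with chow, but the call of Thrb ended without chow replicate 3 or T3 replicate 3 (adjusted p up to 0.0531). The libraries do not mark strand, and Nr1d1 overlaps the end of Thra in the opposite sense, so reads from the shared stretch could belong to either gene. Of 15 tested genes for receptors, partners and transporters, 1 was higher and 2 were lower, where 14.7% of all tested genes were called. The deiodinase genes Dio1, Dio2 and Dio3 of this list were not tested. The second lower gene was the retinoid receptor Rxra (log2 difference -0.35, SE 0.0932, adjusted p = 0.0215). The call of Rxra ended without chow replicate 1 or 2 or T3 replicate 2 (adjusted p up to 0.0927).

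Among 19 tested genes listed as induced by the hormone in heart, 8 were higher and 0 lower (42.1% called against 14.7% of all tested genes). Their median log2 difference was 0.39 beside -0.0012 over all tested genes. The list was drawn up with earlier results of these data known, so these shares are not an independent comparison. At an unadjusted p under 0.05 in limma, 0 of the 19 were lower. The count was 4 without T3 replicate 3, 5 without chow replicate 3. Apart from Hr, the steadiest members were Atp1b1 and Gpd2. Atp1b1, the sodium pump's beta subunit, was at 141, 135 and 132 FPKM on chow, 101, 89.9 and 98.1 on PTU and 254, 307 and 367 after T3 (log2 difference 1.17, SE 0.140, adjusted p = 8.51e-05). Gpd2, the mitochondrial glycerol phosphate dehydrogenase, was at 3.85, 4.04 and 2.72 FPKM on chow, 1.71, 1.56 and 1.57 on PTU and 5.31, 6.46 and 5.76 after T3 (log2 difference 0.60, SE 0.111, adjusted p = 0.00271). In both, no T3 library overlaps with chow.

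The pacemaker channels Hcn2 and Hcn4 were among the 8. Hcn2 was at 18.3, 14.2 and 13.1 FPKM on chow, 1.72, 1.96 and 1.94 on PTU and 34.2, 19.1 and 30.6 after T3 (log2 difference 0.81, SE 0.200, adjusted p = 0.0142), and Hcn4 at 3.71, 2.85 and 3.62 on chow and 8.19, 6.47 and 5.46 after T3 (log2 difference 0.80, SE 0.196, adjusted p = 0.0131). For Hcn2 the T3 libraries all lie above chow but closely for replicate 2. Ucp3, a mitochondrial carrier, was at 18.2, 25.6 and 12.6 FPKM on chow, 2.47, 1.67 and 1.96 on PTU and 51.5, 24.8 and 56.4 after T3 (log2 difference 1.16, SE 0.308, adjusted p = 0.0213), with 1 T3 library inside the chow range. The call of Hcn2 ended without chow replicate 3 or T3 replicate 1 or 3 (adjusted p up to 0.0651), that of Hcn4 without chow replicate 2 (adjusted p up to 0.0524) and that of Ucp3 without chow replicate 1 or 3 or T3 replicate 1 or 3 (adjusted p up to 0.0997). In the list of 8 hormone-repressed genes, 2 were lower, Thra and Myh7b, a slow-type myosin gene. Myh7b was at 18.04, 17.4 and 16.9 FPKM on chow, 26.7, 24.96 and 42.4 on PTU and 8.11, 3.19 and 4.09 after T3 (log2 difference -1.67, SE 0.254, adjusted p = 0.000848), with no overlap.

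In the sarcomere list, 3 of 30 tested genes were higher and 4 lower, near the share over all genes, with a median of 0.05. The higher count was 1 without chow replicate 1, chow replicate 3 or T3 replicate 3, and the lower count was 2 without chow replicate 3 or T3 replicate 2. Actc1, cardiac actin, was at 9628, 11955 and 10348 FPKM on chow, 4561, 5202 and 5108 on PTU and 17106, 15571 and 22777 after T3 (log2 difference 0.78, SE 0.173, adjusted p = 0.00782). Every T3 library exceeded every chow library. The members named here thus lay on both sides, Myom2 and Myh7b below chow and Actc1 above it. Actc1 has q = 0.453 in the authors' deposited table.

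Excitation and calcium genes likewise divided. In the ion channel and pump list, 5 of 28 tested genes were higher and 5 lower (35.7% called). In the calcium handling list 3 of 24 were higher and 4 lower (29.2%), where 14.7% of all tested genes were called. The higher count of channels was 3 without chow replicate 3 or T3 replicate 3, and the lower count of calcium genes was 1 without chow replicate 1, T3 replicate 1 or T3 replicate 2, 2 without chow replicate 2, chow replicate 3 or T3 replicate 3. Kcnip2, the subunit that sets the fast transient outward potassium current, was at 87.3, 96.3 and 60.8 FPKM on chow, 188, 151 and 202 on PTU and 22.4, 9.32 and 29.9 after T3 (log2 difference -2.05, SE 0.336, adjusted p = 0.00153). Kcnj5, a potassium channel opened by acetylcholine receptors, was at 33.9, 30.1 and 33.1 FPKM on chow, 63.04, 49.2 and 50.5 on PTU and 20.1, 16.6 and 17.4 after T3 (log2 difference -0.81, SE 0.118, adjusted p = 0.000458). For these channels the T3 libraries were all under chow and the PTU libraries all above it.

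Cacna1c, the pore of the L-type calcium channel, was at 29.8, 27.7 and 23.1 FPKM on chow, 44.03, 38.3 and 47.3 on PTU and 17.97, 15.1 and 13.9 after T3 (log2 difference -0.74, SE 0.113, adjusted p = 0.000746). Rrad, an inhibitor of that channel, was at 96.3, 95.1 and 66.7 FPKM on chow and 33.6, 28.6 and 17.7 after T3 (log2 difference -1.68, SE 0.247, adjusted p = 0.000619). Srl, sarcalumenin of the sarcoplasmic reticulum, was at 319, 329 and 307 FPKM on chow, 181, 181 and 194 on PTU and 559.9, 578 and 629 after T3 (log2 difference 0.88, SE 0.0909, adjusted p = 2.13e-05). The T3 libraries were thus all below chow for the channel and its inhibitor and all above chow for sarcalumenin. In the adrenergic and muscarinic list, 2 of 30 tested genes were higher and 3 lower (16.7% called, near the 14.7% of all tested genes). The lower count was 0 without chow replicate 1, chow replicate 2 or T3 replicate 3. Adra1b, an alpha-1 adrenergic receptor, was at 8.38, 11.2 and 8.80 FPKM on chow, 7.52, 5.92 and 8.03 on PTU and 18.6, 15.4 and 20.7 after T3 (log2 difference 0.88, SE 0.153, adjusted p = 0.00191), without overlap.

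Some genes of the junctions that couple cardiomyocytes end to end were lower. Of 18 tested intercalated disc genes, 0 were higher and 8 were lower (44.4% called against 14.7% of all tested genes). Their median log2 difference was -0.29, and 12 lay below chow without overlap. At an unadjusted p under 0.05 in limma, 2 were higher. Gja1, connexin 43 of the ventricular gap junction, was at 138, 125 and 116 FPKM on chow, 195, 170.1 and 172 on PTU and 66.8, 70.2 and 69.8 after T3 (log2 difference -0.86, SE 0.109, adjusted p = 0.000137). Dsp, desmoplakin of the desmosome, was at 164, 153 and 116 FPKM on chow, 226, 214 and 245 on PTU and 88.5, 79.3 and 78.5 after T3 (log2 difference -0.79, SE 0.118, adjusted p = 0.000576). Nrap, an actin anchor at the disc, was at 169, 139 and 171 FPKM on chow and 95.3, 96.4 and 94.1 after T3 (log2 difference -0.73, SE 0.130, adjusted p = 0.00211). None of these 3 overlaps. Pkp2, plakophilin 2, was lower by a smaller amount (log2 difference -0.47, SE 0.113, adjusted p = 0.0128), and its call ended without chow replicate 1 (adjusted p up to 0.0663). The count of lower genes was 4 without chow replicate 1, 5 without chow replicate 2 or T3 replicate 2. In hearts labelled cKO, limma called 8 of the 18 lower and 0 higher (9.15% and 11.7% over all genes).

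**Figure D3:**
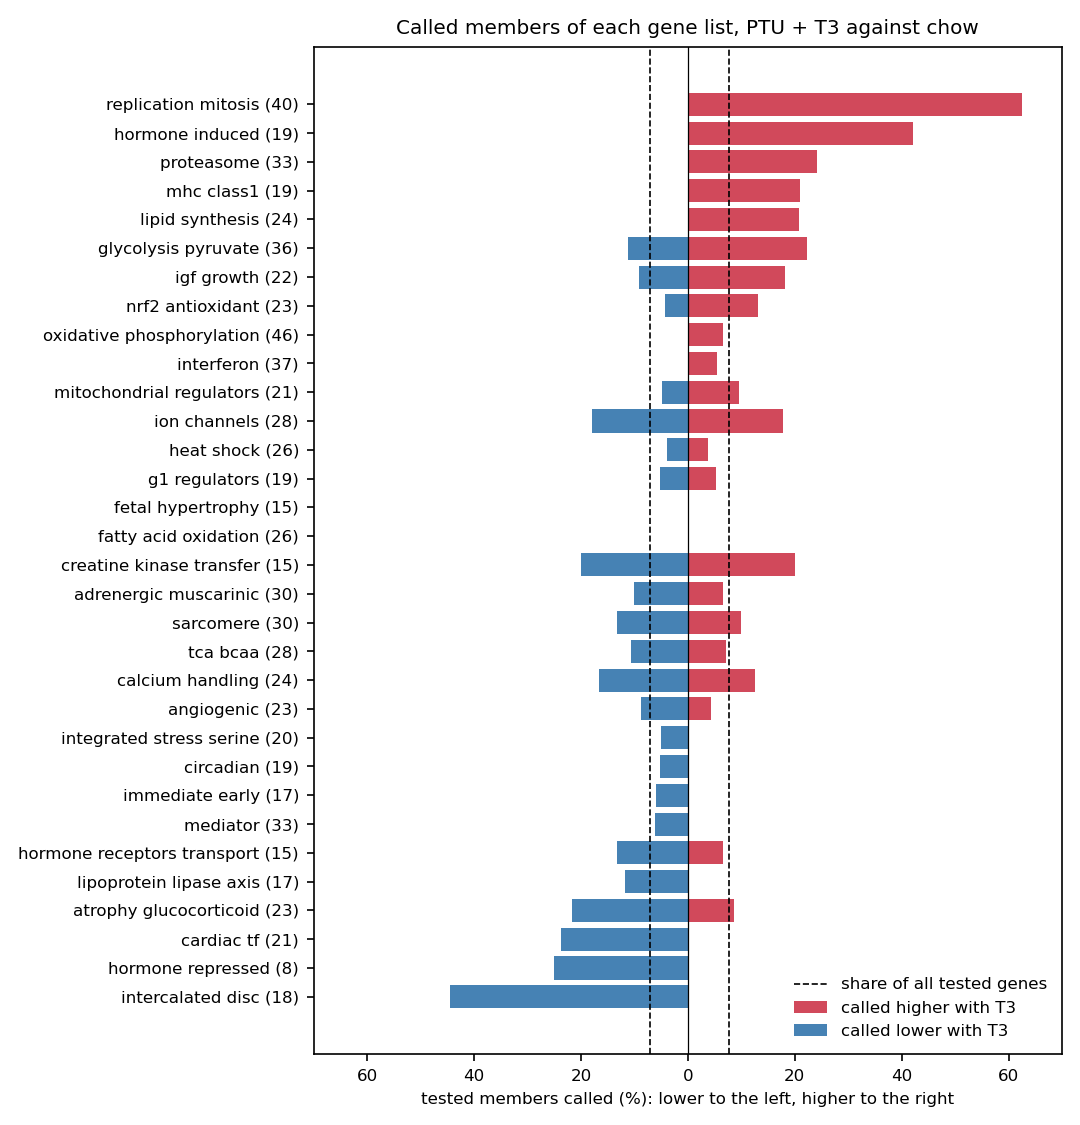
Share of tested members of each gene list called higher (red, to the right) or lower (blue, to the left) after T3 against chow, with the number tested in brackets and dashed lines at the shares over all tested genes, 7.68% and 6.999%. Replication and mitosis genes reach farthest to the right, and intercalated disc genes farthest to the left.

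Energy metabolism did not move as a block. In the fatty acid oxidation list, limma called 0 of 26 tested genes in either direction, with a median of 0.03. At an unadjusted p under 0.05, 3 were higher and 2 lower, and the authors' deposited table calls 3 of the 26. After leaving out 1 library, limma called 2 of them lower without chow replicate 3 and 1 without T3 replicate 1, and after quantile normalization 3. Cpt2, the inner carnitine palmitoyltransferase, is one with q = 0.0216 in the authors' deposited table; it was at 129, 138 and 96.6 FPKM on chow, 64.2, 45.96 and 67.99 on PTU and 183, 139 and 189 after T3 (log2 difference 0.49, SE 0.192, adjusted p = 0.0952). Lpl, which releases fatty acids from circulating lipoproteins, was at 1299, 1358 and 966 FPKM on chow, 2285, 1894 and 2887 on PTU and 787, 544 and 706 after T3 (log2 difference -0.83, SE 0.203, adjusted p = 0.0134), and its call ended without chow replicate 1 or 2 or T3 replicate 2 (adjusted p up to 0.0575). Among 46 tested genes of oxidative phosphorylation 3 were higher and 0 lower (6.52% called against 14.7% of all tested genes). At an unadjusted p under 0.05 in limma, 1 was lower. The higher count was 0 without T3 replicate 3, 1 without chow replicate 1 or chow replicate 3, and after quantile normalization 6 were higher and 4 lower.

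Glycolysis and pyruvate genes showed both directions, with 8 of 36 tested genes higher and 4 lower (33.3% called against 14.7% of all tested genes). The higher count was 2 without T3 replicate 3, 4 without chow replicate 1, 5 without chow replicate 3, T3 replicate 1 or T3 replicate 2, and the lower count stayed between 4 and 5 but was 8 after quantile normalization. Pgk1, phosphoglycerate kinase, was at 415, 369 and 364 FPKM on chow, 261, 243 and 273 on PTU and 796, 802 and 849.9 after T3, 2.13 times chow (log2 difference 1.09, SE 0.0846, adjusted p = 1.51e-06). Hk1, a hexokinase, was at 78.7, 71.5 and 64.3 FPKM on chow, 106, 98.99 and 102 on PTU and 47.7, 49.9 and 42.7 after T3 (log2 difference -0.60, SE 0.104, adjusted p = 0.00181). The T3 libraries of Pgk1 all lie above chow and those of Hk1 all below, each on the side away from PTU. Gbe1, the glycogen branching enzyme, was higher (log2 difference 0.74, SE 0.144, adjusted p = 0.00364) at 24.8 ± 3.78 FPKM on chow and 41.8 ± 1.08 FPKM after T3. Pdk1, a kinase that turns off pyruvate dehydrogenase, was lower (log2 difference -0.67, SE 0.124, adjusted p = 0.00279) at 48.4 ± 4.004 FPKM on chow and 30.1 ± 3.74 FPKM after T3.

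Suclg1, a subunit of succinyl-CoA ligase in the citric acid cycle, was at 348, 395 and 303 FPKM on chow, 304, 235 and 346 on PTU and 624, 599 and 792 after T3 (log2 difference 0.94, SE 0.169, adjusted p = 0.00227). Slc6a8, the creatine transporter, was at 77.5, 61.1 and 68.6 FPKM on chow, 80.5, 79.5 and 85.8 on PTU and 37.4, 36.1 and 34.3 after T3 (log2 difference -0.92, SE 0.0957, adjusted p = 2.38e-05). These pairs of groups do not overlap. In the lipid synthesis list 5 of 24 tested genes were higher and 0 lower (20.8% called against 14.7% of all tested genes). At an unadjusted p under 0.05 in limma 2 were lower, and the higher count was 3 without chow replicate 2. Idi1, isopentenyl-diphosphate isomerase, was at 5.34, 4.08 and 4.19 FPKM on chow, 4.08, 4.17 and 3.59 on PTU and 7.18, 19.2 and 6.37 after T3 (log2 difference 0.95, SE 0.263, adjusted p = 0.0250), and its call ended without chow replicate 2 or 3 (adjusted p up to 0.0765). Fdps, farnesyl diphosphate synthase, was at 17.3, 15.5 and 15.01 on chow and 20.04, 28.9 and 24.8 after T3 (log2 difference 0.58, SE 0.122, adjusted p = 0.00554). In both of these cholesterol-pathway genes the PTU and chow libraries overlap, and every T3 library lies above every chow library.

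Genes of DNA replication and mitosis made the largest block above chow among the lists examined. Of 40 tested, 25 were higher and 0 lower (62.5% called against 14.7% of all tested genes). Their median log2 difference was 0.60, and 32 of the 40 lay above chow without overlap. At an unadjusted p under 0.05 in limma, 34 were higher and 0 lower. Hells reached 1 FPKM only in the wild-type T3 libraries. Aurkb, Tpx2, Bub1b, Kif11, E2f1, Plk1, Aurka, Ccne1 and Ccne2 reached it only in T3 libraries. Mki67, Top2a, Ccnb2, Cdk1 and Kif20a reached it in 3 or more libraries only with T3 libraries counted. Such members were tested only through the groups where they are high, so the filter favours higher members in the counts for this list. Mki67, a marker of dividing cells, was at 0.876, 0.501 and 0.766 FPKM on chow, 0.459, 0.125 and 0.175 on PTU and 2.77, 3.36 and 2.45 after T3 (log2 difference 1.17, SE 0.221, adjusted p = 0.00304). Top2a, the topoisomerase that untangles chromosomes, was at 0.631, 0.372 and 0.813 on chow and 2.88, 4.06 and 2.65 after T3 (log2 difference 1.38, SE 0.238, adjusted p = 0.00175). Birc5, survivin of the chromosomal passenger complex, was at 1.02, 0.236 and 0.928 on chow and 3.75, 5.12 and 2.70 after T3 (log2 difference 1.495, SE 0.336, adjusted p = 0.00889). For all 3 the lowest T3 library was above the highest chow library.

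S-phase enzymes and mitotic kinases behaved alike in direction. Rrm2, a subunit of ribonucleotide reductase, was at 1.10 ± 0.201 FPKM on chow and 3.73 ± 0.562 FPKM after T3 (log2 difference 1.17, SE 0.219, adjusted p = 0.00294), and Tk1, thymidine kinase, was at 1.29 ± 0.175 FPKM on chow and 4.89 ± 2.24 FPKM after T3 (log2 difference 1.30, SE 0.209, adjusted p = 0.00110). Cdk1, the mitotic cyclin-dependent kinase, was at 0.651 ± 0.276 FPKM on chow and 2.23 ± 0.336 FPKM after T3 (log2 difference 0.97, SE 0.202, adjusted p = 0.00532), and Aurkb, the passenger complex's kinase, was at 0.372 ± 0.0779 FPKM on chow and 1.54 ± 0.0595 FPKM after T3 (log2 difference 0.89, SE 0.190, adjusted p = 0.00632). Uhrf1, which keeps DNA methylation through replication, was at 0.999 ± 0.211 FPKM on chow and 3.24 ± 0.425 FPKM after T3 (log2 difference 1.09, SE 0.157, adjusted p = 0.000443). The replicative helicase was uneven: Mcm5 (log2 difference 1.07, SE 0.151, adjusted p = 0.000359) and Mcm2 (log2 difference 0.70, SE 0.117, adjusted p = 0.00138) were higher, while Mcm4 and Mcm7 had no call. Ccnd1, the cyclin that opens the cell cycle in G1, was at 16.6, 18.5 and 20.99 FPKM on chow, 10.96, 6.74 and 10.1 on PTU and 33.6, 29.2 and 38.6 after T3 (log2 difference 0.82, SE 0.163, adjusted p = 0.00423), whereas Cdkn1a, its inhibitor p21, had none (log2 difference 0.40, SE 0.392, adjusted p = 0.540).

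Cenpa, the centromeric histone, set itself apart within the list. It was at 16.98, 22.5 and 18.03 FPKM on chow, 4.93, 5.66 and 7.01 on PTU and 15.5, 16.4 and 24.9 after T3 (log2 difference -0.04, SE 0.167, adjusted p = 0.909), so the T3 and chow libraries overlap and only the PTU libraries are low. Without chow replicate 2 the list's count was 16, and between 18 and 24 without each of the other libraries. In hearts labelled cKO, 23 of the 40 were higher and 0 lower. Among the wild-type T3 libraries, the macrophage and matrix sums were highest in replicate 2. There 18 of the 25 called members, Mki67, Top2a and Birc5 among them, were also at their highest T3 level. The share over all tested genes was not counted. Of the 3 libraries it also had the lowest cardiomyocyte marker sum (44124) and the most genes at 1 FPKM (12093). In hearts labelled cKO, PTU replicate 2 had the highest macrophage (847) and matrix (4557) sums of the 3 PTU libraries. There too Top2a (0.185, 1.52 and 0.213 FPKM) and Birc5 (0.181, 2.10 and 0.512 FPKM) were highest of the 3. After T3 in hearts labelled cKO the sums and these 2 genes were not highest in the same library. Replicate 1 had the highest macrophage (787) and matrix (3221) sums of the 3 but the lowest Top2a (2.01, 2.55 and 3.36 FPKM) and Birc5 (2.32, 5.66 and 3.75 FPKM). The part of other cell types in the result was not tested. Without T3 replicate 2 of wild-type hearts 18 members were called.

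**Figure D4:**
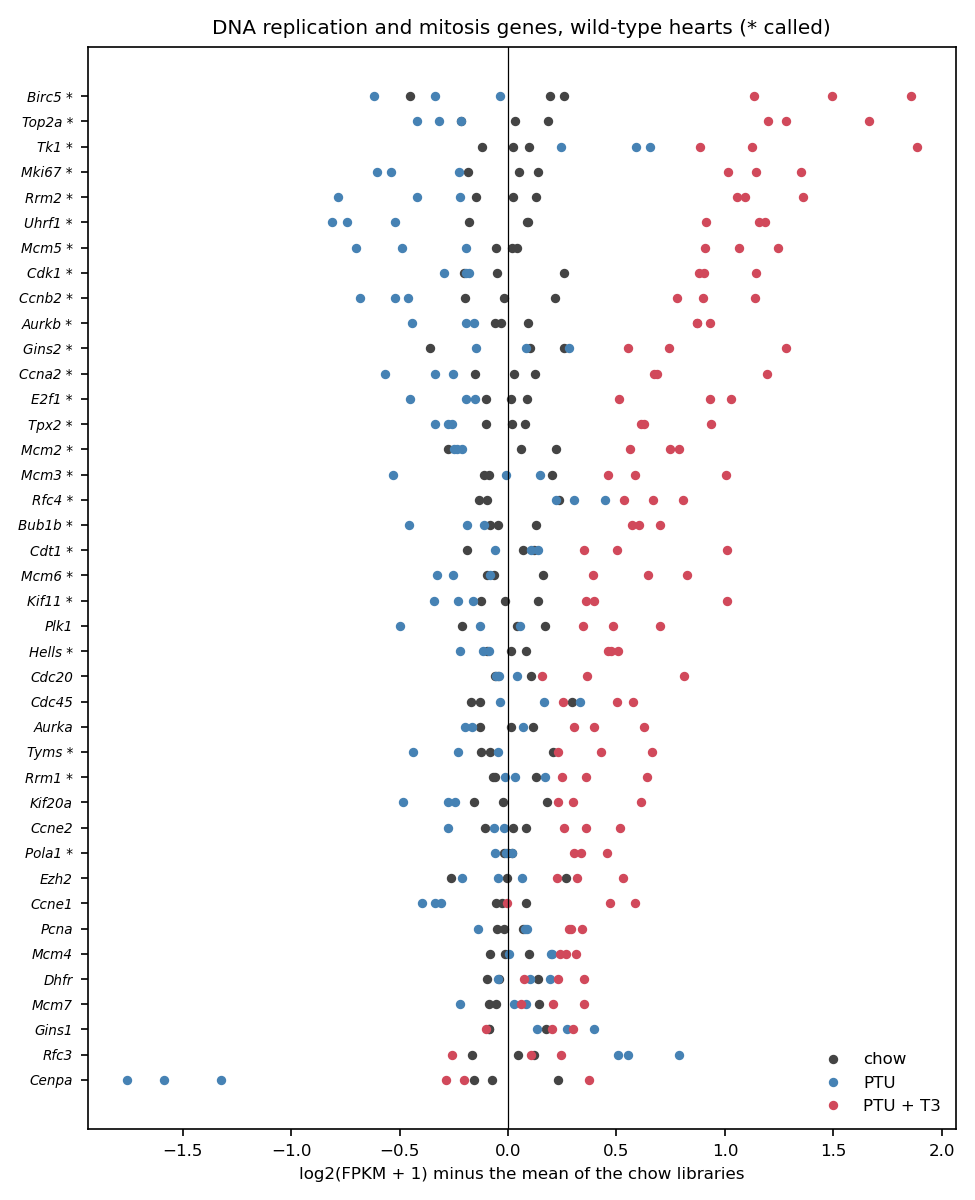
Level of each of the 40 tested replication and mitosis genes in 9 wild-type libraries, as log2(FPKM + 1) minus the mean of the chow libraries, with an asterisk on each of the 25 called genes. All T3 points (red) lie to the right of all chow points (grey) in 32 of the 40 genes, and PTU points are blue.

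The windows of 3 higher members are printed because 2 words typical of E2F sites, TTTGGCGC and TTTCCCGC (in capitals, either strand), were more frequent near the starts of this list than overall. These words and genes were chosen after the list's result was known. Mcm5 and Mcm3 are helicase subunits, and Cdt1 loads the helicase.
Mcm5 (chr8:75109259-75109558, plus strand): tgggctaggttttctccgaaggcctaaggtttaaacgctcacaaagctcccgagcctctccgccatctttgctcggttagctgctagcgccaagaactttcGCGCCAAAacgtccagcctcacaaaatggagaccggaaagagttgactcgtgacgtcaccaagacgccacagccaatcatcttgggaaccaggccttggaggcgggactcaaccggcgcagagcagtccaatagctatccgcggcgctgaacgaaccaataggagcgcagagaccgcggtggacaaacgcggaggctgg
Mcm3 (chr1:20820263-20820562, minus strand): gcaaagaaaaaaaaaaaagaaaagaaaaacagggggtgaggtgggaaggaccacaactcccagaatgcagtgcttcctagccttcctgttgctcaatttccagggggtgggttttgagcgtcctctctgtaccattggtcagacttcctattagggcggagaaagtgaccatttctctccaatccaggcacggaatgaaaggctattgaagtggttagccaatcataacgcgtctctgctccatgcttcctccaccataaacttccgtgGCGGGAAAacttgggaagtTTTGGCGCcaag
Cdt1 (chr8:122567765-122568064, plus strand): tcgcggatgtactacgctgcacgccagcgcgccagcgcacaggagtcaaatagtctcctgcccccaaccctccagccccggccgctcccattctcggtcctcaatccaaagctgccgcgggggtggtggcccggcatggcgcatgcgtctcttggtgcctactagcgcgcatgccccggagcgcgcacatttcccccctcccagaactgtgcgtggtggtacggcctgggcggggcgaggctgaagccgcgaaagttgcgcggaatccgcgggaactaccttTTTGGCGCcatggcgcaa

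Of the 31 list members with a window, 9 (29%) held either word, against 3.33% of all tested genes with a window. Of these 9, Mcm5, Mcm3, Cdt1, Mcm6, Hells and Pola1 were higher after T3, while Ezh2, Mcm7 and Rfc3 had no call. Mcm3 was at 2.72 ± 0.466 FPKM on chow and 5.03 ± 1.24 FPKM after T3 (log2 difference 0.68, SE 0.201, adjusted p = 0.0322), and its call ended without chow replicate 1 or 2 or T3 replicate 2 or 3 (adjusted p up to 0.126). Cdt1 was at 0.835 ± 0.202 FPKM on chow and 1.87 ± 0.716 FPKM after T3 (log2 difference 0.62, SE 0.173, adjusted p = 0.0250), and its call ended without chow replicate 2 or T3 replicate 3 (adjusted p up to 0.131).

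Differences of protein turnover genes were small. In the proteasome list 8 of 33 tested genes were higher and 0 lower (24.2% called against 14.7% of all tested genes). Their median was 0.20, and 18 lay above chow without overlap. The count was 2 without chow replicate 1, chow replicate 3 or T3 replicate 3, 4 without chow replicate 2 or T3 replicate 2, and 4 after quantile normalization. At an unadjusted p under 0.05 in limma, 0 were lower. The authors' deposited table calls 2 of the 33. Psmb3, a core subunit, was at 175, 183 and 169 FPKM on chow and 233, 247 and 274 after T3 (log2 difference 0.51, SE 0.0969, adjusted p = 0.00308), and Psmd14, the deubiquitinase of the lid, at 43.4, 44.3 and 49.99 and 57.5, 58.7 and 67.8 (log2 difference 0.41, SE 0.0902, adjusted p = 0.00773). Neither overlaps.

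The antioxidant list held opposite members. Nqo1, a quinone reductase, was at 35.1, 31.5 and 34.1 FPKM on chow, 58.1, 45.6 and 65.1 on PTU and 19.3, 18.9 and 15.9 after T3 (log2 difference -0.86, SE 0.119, adjusted p = 0.000288). Gclc, which starts glutathione synthesis, was higher (log2 difference 0.45, SE 0.0849, adjusted p = 0.00291) at 5.83 ± 0.505 FPKM on chow and 8.34 ± 0.413 FPKM after T3. Mt2, a metallothionein in the glucocorticoid-responsive list, was at 77.9, 48.3 and 72.1 FPKM on chow and 20.2, 31.5 and 17.04 after T3 (log2 difference -1.51, SE 0.244, adjusted p = 0.00127), and Mt1 was lower too (log2 difference -0.65, SE 0.143, adjusted p = 0.00750). The T3 libraries of both metallothioneins were all below chow.

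Growth-signal genes gave no common direction. Irs1 and Irs2 link the insulin and IGF receptors to the kinases inside. Irs1 was at 6.85, 5.29 and 5.37 FPKM on chow, 3.57, 4.13 and 2.96 on PTU and 10.5, 7.74 and 10.4 after T3 (log2 difference 0.62, SE 0.142, adjusted p = 0.00907), and Irs2 at 2.49, 1.15 and 1.71 on chow, 2.80, 3.64 and 2.46 on PTU and 4.78, 3.48 and 4.41 after T3 (log2 difference 0.93, SE 0.180, adjusted p = 0.00362). Igf2r, which clears IGF2, was at 34.9, 26.6 and 26.9 FPKM on chow, 50.4, 45.8 and 51.2 on PTU and 21.1, 19.8 and 15.1 after T3 (log2 difference -0.63, SE 0.130, adjusted p = 0.00508). Apln, which encodes the vascular peptide apelin, was at 2.11, 2.59 and 2.11 FPKM on chow, 0.383, 0.387 and 0.658 on PTU and 8.15, 5.31 and 10.4 after T3 (log2 difference 1.41, SE 0.213, adjusted p = 0.000681). Irs1, Irs2 and Apln were above chow in every T3 library and Igf2r below. Within the Mediator list 0 of 33 tested genes were higher and 2 lower (6.06% called against 14.7% of all tested genes). At an unadjusted p under 0.05 in limma, 3 were higher. Med25, at 42.4, 41.1 and 36.6 FPKM on chow and 27.4, 18.7 and 27.97 after T3 (log2 difference -0.69, SE 0.116, adjusted p = 0.00137), was one of the 2 lower genes. The lower count was 1 without chow replicate 2 or T3 replicate 2.

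Some antigen presentation genes were higher in wild-type hearts. Of 19 tested genes of MHC class I, 4 were higher and 0 lower (0 at an unadjusted p under 0.05 in limma), with a median of 0.43. The share called was 21.1%, against 14.7% of all tested genes. B2m, the light chain, was at 216, 202 and 279 FPKM on chow, 149, 156 and 149 on PTU and 643, 325 and 346 after T3 (log2 difference 0.85, SE 0.199, adjusted p = 0.0102). H2-K1, a heavy chain, was at 80.3, 84.5 and 95.9 on chow and 269.7, 112 and 134 after T3 (log2 difference 0.87, SE 0.220, adjusted p = 0.0157), although heavy chain genes have near-identical copies whose counts are uncertain. The T3 libraries were above chow in both, and T3 replicate 1 held the highest value of each. The call of H2-K1 ended without chow replicate 1 (adjusted p up to 0.0608). The list's count was 1 without chow replicate 1, 7 without T3 replicate 2. In hearts labelled cKO, 0 of the 19 were higher and 1 lower (median -0.13), and the difference between genotypes was not called for B2m (log2 difference -0.91, SE 0.281, adjusted p = 0.999). Interferon-responsive genes had 2 of 37 higher and 0 lower (5.41% called, under the 14.7% of all tested genes). The higher count was 0 without chow replicate 1, 1 without chow replicate 3, T3 replicate 1 or T3 replicate 3, 7 without T3 replicate 2.

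Few markers of other cell types passed the test, although most macrophage and matrix markers had positive differences. Of 19 tested macrophage markers 1 was higher, the hyaluronan receptor gene Lyve1 (log2 difference 0.80, SE 0.216, adjusted p = 0.0221), and their sum was 440.00 to 799 on chow and 658 to 1078 after T3. Their median log2 difference was 0.44, 17 of the 19 differences were positive, and the authors' deposited table calls 8. Of 31 matrix and fibroblast markers 1 was higher, the basement membrane collagen gene Col4a2 (log2 difference 0.67, SE 0.197, adjusted p = 0.0340), and 1 lower, the gelsolin gene Gsn (log2 difference -0.69, SE 0.165, adjusted p = 0.0113), with sums of 2883 to 4356 on chow and 2738 to 5049.9 after T3. Here the median was 0.32, 24 of the 31 differences were positive, and the authors' deposited table calls 15. The limma calls ended without chow replicate 1 or 2 or T3 replicate 1 or 3 (adjusted p up to 0.0946) for Lyve1, without chow replicate 1 or 2 or T3 replicate 2 or 3 (adjusted p up to 0.112) for Col4a2 and without T3 replicate 2 (adjusted p up to 0.0502) for Gsn. Endothelial markers had 0 of 17 called by limma (0 higher and 0 lower at an unadjusted p under 0.05; sum 1576 to 1909 on chow and 1679 to 2217 after T3). The macrophage genes Adgre1 and C1qa were at 3.05 to 8.02 FPKM on chow and 5.01 to 13.2 FPKM after T3 and at 61.8 to 110.3 FPKM on chow and 96.6 to 126 FPKM after T3. Acta2, smooth muscle actin, was the single smooth muscle marker called, at 163, 231 and 196 FPKM on chow, 45.4, 85.96 and 38.7 on PTU and 382, 565 and 363 after T3 (log2 difference 1.14, SE 0.310, adjusted p = 0.0241), and its call ended without chow replicate 1 or 3 or T3 replicate 2 (adjusted p up to 0.0937) or after quantile normalization.

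Whether a gene after T3 lay on the same side of chow as on PTU or on the far side was read from the PTU libraries labelled cKO. These are in neither group of the comparison but share its estimate of each gene's spread. On PTU these hearts had 810 genes higher than their own chow (6.44%) and 1207 lower (9.59%). These 2017 calls (16.02%) were 955 without the chow replicate 1 labelled cKO, 1265 without chow replicate 2 and 1255 without PTU replicate 1. Of the 967 genes higher after T3 in wild-type hearts, 356 (36.8%, or 29.5% of the other list) were lower on PTU in hearts labelled cKO, and 13 (1.34%, or 1.60%) were higher. Of the 881 genes lower after T3, 246 (27.9%, or 30.4%) were higher on PTU, and 20 (2.27%, or 1.66%) were lower. Calls on the far side of chow from PTU were therefore many times more numerous than calls on the same side. The rest had no call on PTU.

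The 33 genes on the same side as PTU in hearts labelled cKO had log2 differences from -0.72 to 0.93. The same side does not show that a gene had still to come back to chow. Ntn1 had wild-type means of 22.9 FPKM on chow, 59.0 on PTU and 30.8 after T3. Irs2, at 1.78, 2.97 and 4.22, was farther from chow after T3 than on PTU. Wild-type PTU hearts did not always lie on that side. Nrm had means of 2.40 FPKM on chow, 2.21 on PTU and 4.05 after T3, and Bag3 was near chow on PTU (105.1 and 104.7 FPKM). Abcg2, a drug and urate exporter, was at 21.9, 20.3 and 20.4 FPKM on chow, 23.98, 25.6 and 29.6 on PTU and 28.4, 29.8 and 32.6 after T3 (log2 difference 0.52, SE 0.102, adjusted p = 0.00407). Dstn, which severs actin filaments, was at 124, 135 and 163 FPKM on chow, 178, 201 and 205 on PTU and 208, 209.7 and 187 after T3 (log2 difference 0.52, SE 0.121, adjusted p = 0.00957), with its call lost without chow replicate 1 (adjusted p up to 0.0519). For these genes the T3 libraries were above chow and near PTU. On the lower side, Pfkfb2, which sets the level of a glycolytic activator, was at 35.3, 31.4 and 29.9 FPKM on chow, 26.4, 25.2 and 29.4 on PTU and 20.998, 21.02 and 19.8 after T3 (log2 difference -0.62, SE 0.101, adjusted p = 0.00122). Mapt, the tau protein, was at 17.7, 15.9 and 13.9 on chow, 13.7, 14.4 and 14.4 on PTU and 10.8, 9.05 and 11.1 after T3 (log2 difference -0.57, SE 0.102, adjusted p = 0.00212), and Kcna7, a potassium channel, at 4.77, 4.60 and 4.11 on chow, 3.41, 3.09 and 4.94 on PTU and 3.10, 2.17 and 2.85 after T3 (log2 difference -0.58, SE 0.126, adjusted p = 0.00746). Here the T3 libraries lay below both chow and PTU in the means of all 3 genes. Irs2 belongs to the 13, since it was also higher on PTU in hearts labelled cKO (adjusted p = 0.0185).

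The same treatment in hearts labelled cKO called 1477 genes higher (11.7%) and 1152 lower (9.15%), and the total of 2629 (20.9%) was 1628 without T3 replicate 2 and 1701 without chow replicate 3 of that label. Of the 967 genes higher in wild-type hearts, 779 (80.6%, or 52.7% of the cKO list) were also higher there and 0 were lower. Of the 881 lower genes, 664 (75.4%, or 57.6%) were also lower and 0 were higher. Calls in both genotypes rest on the same estimate of each gene's spread, so these overlaps are not fully independent. Hr, for instance, was at 5.44, 5.36 and 7.04 FPKM on chow and 59.3, 58.2 and 55.9 after T3 in these hearts, and Myom2 at 186, 313 and 281 and 17.6, 27.4 and 25.02. No gene passed the test of the difference between genotypes in limma, with 294 (2.34%) at an unadjusted p under 0.05. The smallest p belonged to Xrcc2, a DNA repair gene, at 3.09, 3.05 and 3.75 on chow and 3.04, 3.43 and 4.38 after T3 in wild-type hearts and 3.73, 2.30 and 2.28 and 7.87, 6.33 and 7.11 in those labelled cKO (log2 difference 1.02, SE 0.199, adjusted p = 0.742). Tmem52 was next, higher in both genotypes (log2 difference 1.22, SE 0.246, adjusted p = 0.742 for the difference between them).

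**Figure D5:**
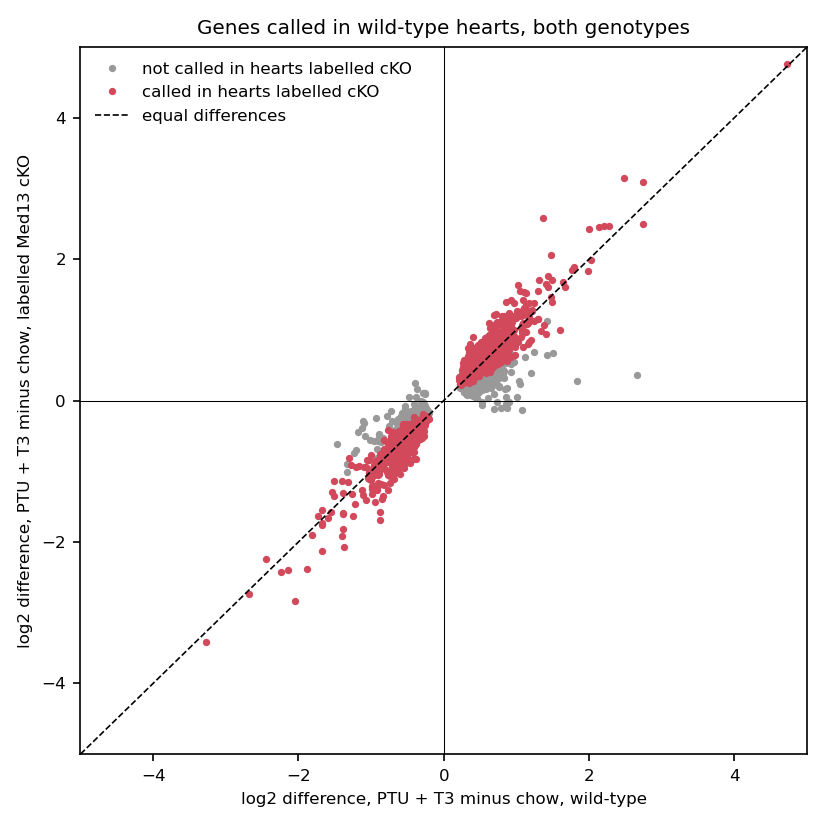
Log2(FPKM + 1) difference, PTU with T3 minus chow, in hearts labelled Med13 cKO against that in wild-type hearts, one point for each of the 1848 genes called in wild-type hearts, with a dashed line of equal differences. Red points, 779 higher and 664 lower, are called in both, and no gene is called in opposite directions.

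In the authors' deposited table for the same groups, 1532 genes have q under 0.05, 820 higher and 712 lower after T3. Of the genes called here, 561 of those higher (58.0%) and 525 of those lower (59.6%) are also called in the authors' deposited table, and 0 in the opposite direction. Some genes differ between the sources. Ppargc1a, a regulator of mitochondrial genes, was at 23.8, 23.9 and 17.5 FPKM on chow, 32.6, 44.4 and 73.3 on PTU and 14.5, 14.7 and 17.6 after T3, with log2 difference -0.45, SE 0.247, adjusted p = 0.248 here and q = 0.0132 in the authors' deposited table. Ucp2, a mitochondrial carrier, was at 209, 174 and 135 FPKM on chow, 41.2, 31.7 and 20.7 on PTU and 130.3, 135 and 105 after T3, with adjusted p = 0.353 here and q = 0.0193 in the authors' deposited table. Nppb, the B-type natriuretic peptide, was at 462, 187 and 1118 FPKM on chow and 283, 556 and 201 after T3, with adjusted p = 0.623 here and q = 0.00351 in the authors' deposited table. Chow replicate 3 holds its highest value. Hcn2, called higher here, has q = 0.821 in the authors' deposited table. Other genes called here but not there include Prss55 (q = 0.549), Actc1 (q = 0.453), 9030619P08Rik (q = 0.133), Nqo1 (q = 0.0916) and Rxra (q = 0.0868).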

How the data were processed

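Libraries were TruSeq V2 preparations of polyadenylated RNA, which do not mark strand, from frozen hearts extracted with Trizol, per the labels' protocols. Bowtie2, Cufflinks and build mm10 are named in the submitters' processing notes. Of 7 deposited tables, 2 were used: the authors' FPKM table of all 18 libraries, in which 0.01 stands for the lowest value, and the authors' table of chow against PTU with T3 in wild-type hearts, whose deposited q-values appear as q. Depth is unknown.

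All values were fitted as log2(FPKM + 1) with limma 3.58.1 in R 4.3.3, 6 group means, a trended prior and robust estimation. The 12587 genes tested reached 1 FPKM in 3 or more of the 18 libraries, and p-values were adjusted over all of them by the Benjamini-Hochberg method. Calls need an adjusted p under 0.05. The fit was tested on simulated data. Replicate numbers follow record order and pair nothing.

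Gene lists and members were chosen with earlier results of these data known. Named genes are a panel of usual hormone targets, the extremes among called genes whose groups do not overlap (15 on each side), up to 4 called members of each list by size of difference, and the 3 smallest p-values for the difference between genotypes. Named after their values were seen were Hcn4, Gpd2, Mcm2, Mcm3, Mcm5, Cdt1, Rrm2, Uhrf1, Cdk1, Aurkb, Cenpa, Abcg2, Dstn, Kcna7, Mapt, Hk1, Pfkfb2, Pkp2, Tnni1, Cpt2 and Kcnj5. Some genes that these rules name are not reported here. Promoter windows and gene positions came from RefSeq GRCm38.p6. Alternatives were another pseudocount (0.1), filters, scalings, priors and sample sets, and each library left out in turn.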

Additional observations from a re-analysis of the deposited data

How the results depend on the processing

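Of 15 alternatives to the fit of wild-type hearts, those that kept all 18 libraries gave counts within 1.5 times the 1848 called. With only the 6 libraries of both groups in the fit 857 genes were called (441 higher, 416 lower), and with only the 9 wild-type libraries 1225 (648 and 577). Leaving out 1 library at a time gave 949 to 1752 calls in all, 458 to 908 higher and 477 to 844 lower. In hearts labelled cKO the same step gave 1628 to 2170 calls for T3 against chow (884 to 1233 higher, 744 to 937 lower) and 955 to 1942 for PTU against chow (340 to 739 higher, 615 to 1203 lower). These fits use fewer libraries, and no other cause was tested. No gene was called for the difference between genotypes by limma under any alternative run. Of the 140 genes with a call that the naming rule or later choice gave, 75 kept it under every alternative run and 80 without each of the 6 libraries.

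Sign changes were found only among named genes without a call in either fit. They came to 27, each being 1 gene under 1 alternative, so a gene can count more than once. With 1 library left out, their log2 differences ranged for Med13 from -0.0142 to 0.0917, Myh6 from -0.286 to 0.0634, Atp2a2 from -0.187 to 0.218, Nppa from -0.614 to 0.989, Nppb from -1.18 to 0.103, Kcnd2 from -0.392 to 0.251, Slc8a1 from -0.251 to 0.0207, Ryr2 from -0.0105 to 0.249, Angptl4 from -0.717 to 0.0750, Igf1 from -0.300 to 0.379, Xrcc2 from -0.0180 to 0.188, Cenpa from -0.243 to 0.0847 and Tnni1 from -0.0692 to 0.194. Under other settings, Atp2a2 was -0.00461 with library weights, Kcnd2 was 0.0141 with a pseudocount of 0.1, Kcnd2 was 0.0169 with quantile normalization and Vegfa was -0.0100 with quantile normalization. Counts by gene list without 1 library or under other scalings were added after seeing the data. FPKM gives no depth. No paired analysis was possible because the labels carry no replicate numbers shared between groups.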
